A study of Mus musculus with 11 samples.

Results

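The loss of Cxcr6 was examined in hepatocytes that also lacked Nemo, by setting 3 arrays of mice with liver-specific Nemo deletion and Cxcr6 knockout (double KO) against 3 arrays of mice with liver-specific Nemo deletion alone (Nemo KO). These 6 arrays were chosen by their sample titles, out of 11 in the series, and are described across 18337 genes. All mice were male and 12 weeks old, the source names mark both groups as Cre-positive, and 300 ng of total RNA per sample was labelled for the array. The other 5 arrays, all Cre-negative, were Cxcr6 knockout with intact Nemo (Cxcr6 KO, n = 3) and wildtype (n = 2). The source names put double KO and Cxcr6 KO mice in one line (Nemo_CXCR6) and Nemo KO and wildtype mice in another (Nemo), so the absence of Cxcr6 and any other difference between the lines cannot be told apart. The sources used here do not name the promoter that drives Cre, although LPC in the label NemoLPC-KO is the usual short form for liver parenchymal cells. The Cxcr6 knockout is not described as confined to any tissue.

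Nemo, encoded by Ikbkg, regulates the IkB kinases, and through them the transcription factor NF-kB. Hepatocytes without it are sensitive to death signals, and mice with this deletion develop hepatitis, fibrosis and liver tumours. Cxcr6 is a chemokine receptor of natural killer T cells and T cells, and its ligand Cxcl16 is made in the liver by endothelial cells and macrophages. The comparison asks what the absence of Cxcr6 changes in hepatocytes of the Nemo-deleted liver. Hepatocytes themselves are not known for making Cxcr6.

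Values are log2 signals, so a difference of 1 is a doubling. Array medians lay between 5.19 and 5.38 and single values ran from 1.79 to 19.93. Hepatocyte markers were high in all groups (list means of 17.9 to 18.2 over 19 genes). Arrays of one group correlated at 0.990 to 0.995 across genes, except the 2 wildtype arrays, at 0.984. The second wildtype array stood apart from the first: Mki67, a proliferation marker, read 11.18 against 5.35, and the mean of 22 female-biased liver genes was 11.2 against 8.71. The Y-linked gene Eif2s3y read 10.38 and 10.43 in them. Counts of genes and list medians that use the wildtype arrays are therefore also given with each of them alone, while the Cre-negative difference of a single gene uses both unless stated. In none of the groups did the rows of the targeted genes check the deletions. Ikbkg read 8.76, 8.90 and 9.49 in double KO and 9.33, 9.18 and 9.45 in Nemo KO. It read 9.18, 9.12 and 9.16 in Cxcr6 KO and 9.02 and 9.47 in wildtype, so these groups overlapped. Cxcr6 read 5.29, 4.94 and 5.31 in double KO and 4.98, 5.30 and 5.25 in Nemo KO, close to the array medians, and the position of its probes relative to the deletion was not available to check. It read 5.29, 5.56 and 5.09 in Cxcr6 KO and 5.35 and 5.47 in wildtype.

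Between double KO and Nemo KO, 109 genes differed at an adjusted p under 0.05 (limma, Benjamini-Hochberg over all genes), which is 0.594% of those tested. Of these, 67 rose (0.365%) and 42 fell (0.229%) in double KO. Leaving aside microRNA, olfactory receptor, Rik and predicted genes, which are given further on, the largest rises were in Clec2h, Akr1c18, Acpp, Selenbp2, Hsd3b3 and Pik3c2a, and the largest falls were in Saa1, Slco1a1, Lnx1, Prelid2 and Alas2. A change of at least 1 on the log2 scale was seen in 32 genes that rose and 7 that fell. The 109 genes comprised 73 named protein-coding or similar genes, 20 predicted models, 13 microRNA genes and 3 olfactory or vomeronasal receptor genes. Because 13 of them share identical values with another called gene, the 109 genes carry 99 distinct profiles (66 up and 33 down). The median log2 difference over all genes was 0.04. After each array was centred on its median, that median became 0.16 and the calls became 174 higher and 27 lower. With a highest group mean of at least 7 the calls were 50 higher and 11 lower. Without double KO replicate 3 they were 26 higher and 3 lower. Of the 42 genes that fell, 14 were predicted models and 12 were microRNA genes. The calls rest on the spread of all 4 groups: a fit of only the 6 arrays called 11 genes, of which 10 were among the 109. These were F830016B08Rik, Gm12397, Gm3704, Mug2, Olfr1034, Ptpmt1, Selenbp1, Selenbp2, Trim12a and Ulk2, and the eleventh was Cyp4a14. Leaving out a single array gave 29 calls without double KO replicate 3, 49 without its replicate 2, 19 without Nemo KO replicate 1 and 47 without its replicate 2. It gave 102 without double KO replicate 1 and 87 without Nemo KO replicate 3. Without Cxcr6 KO replicates 1, 2 and 3, which enter only through the spread, the counts were 48, 30 and 26. In every one of the 6 fits that left out a double KO or Nemo KO array, 16 genes were called: Akr1c18, Akr1e1, F830016B08Rik, Gm12397, Gm3704, Hsd3b3, Mir1948, Mug2, Olfr1033, Olfr1034, Ptpmt1, Selenbp2, Slc22a28, Sugct, Trim12a and Ulk2. Each of the other called genes lost its call in at least 1 of these fits, and all 109 kept their direction in every fit that tested them.

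The Cre-negative arrays offer a second comparison of the same 2 lines that shares no array with the first. Both comparisons come from the same fit and share its estimate of each gene's spread. Counts of genes that pass a p-value in both are therefore not independent. Between Cxcr6 KO and wildtype, 47 genes passed 5% (0.256%), 32 higher (0.175%) and 15 lower (0.0818%) in Cxcr6 KO. Of the 109 genes, 75 (68.8%) had the same sign there, against 52.1% of all genes tested. This held for 55 of the 67 that rose (82.1%) and 20 of the 42 that fell (47.6%). Counted by distinct profile, it held for 74 of 99 (74.7%), 55 of 66 that rose (83.3%) and 19 of 33 that fell (57.6%). In this Cre-negative comparison 21 of the 109 passed 5% with the same sign and 0 with the opposite sign. At an unadjusted p under 0.05, 47 had the same sign and 2 the opposite one, where 5.93% of all genes were higher and 5.14% lower. Without wildtype replicate 1 or 2, 75 and 84 of the 109 had the same sign and 25 and 22 passed 5% with it, while the genes passing 5% in all became 493 (2.68%) and 361 (1.96%). For the 21 genes that passed 5% in both comparisons, the Cre-negative difference against a single wildtype array was at least 0.58 in size. In another 21 of the 109 genes its sign depended on which wildtype array was used, and 9 of these were Mir669a genes with identical values. Without Cxcr6 KO replicates 1, 2 and 3, 80, 72 and 73 of the 109 had the same sign and 18, 7 and 7 passed 5% with it. Over all genes, 57.9%, 50.2% and 48.1% had the same sign, and 33, 8 and 9 passed 5% (0.18%, 0.0435% and 0.0488%). The test of the difference between the 2 comparisons (interaction) called 0 genes with limma, with 2155 (11.8%) at an unadjusted p under 0.05, 6.29% of all genes with a positive and 5.46% with a negative difference. This count was 232 without wildtype replicate 1 and 86 without wildtype replicate 2, where the remaining wildtype array is assumed to vary like the other groups, 7 without double KO replicate 1, 1 without double KO replicate 3 and 1 without Nemo KO replicate 3. Among the 109 genes, 73 had an unadjusted interaction p under 0.05. The 109 were chosen by their difference between double KO and Nemo KO, which is part of the interaction, so a high share is built in. The smallest adjusted value was 0.25, so no single gene was shown to differ between the Cre-positive and Cre-negative setting.

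**Figure D1:**
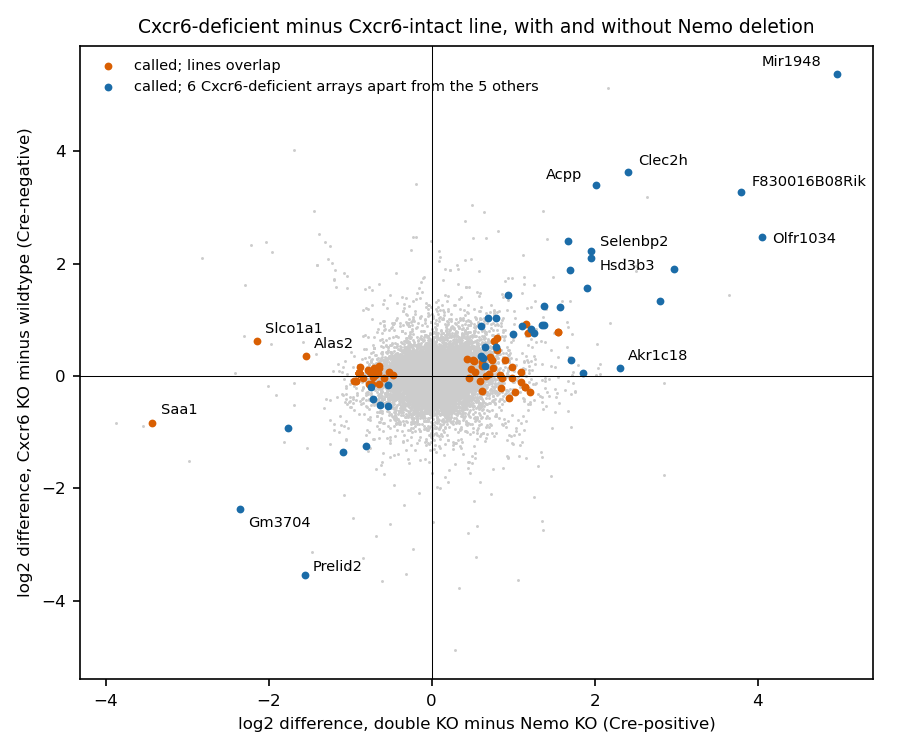
Log2 difference of each gene between double KO and Nemo KO (x axis) and between Cxcr6 KO and wildtype (y axis); grey points are all 18337 genes and coloured points the 109 called between double KO and Nemo KO. Blue points, whose 6 Cxcr6-deficient arrays lie wholly above or below the 5 others, include Mir1948, F830016B08Rik, Clec2h and Acpp far from 0 on both axes, while Saa1, Slco1a1 and Alas2 (orange) lie far from 0 on the x axis.

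The called genes were next sorted by where all 11 arrays lay. In 42 genes the 6 Cxcr6-deficient arrays lay wholly above (32) or below (10) the other 5, a pattern found in 0.725% and 0.322% of all genes. The double KO arrays lay above all 8 others in 30 called genes and below them in 20, beside 2.29% and 2.05% of all genes. The Nemo KO arrays did so in 29 (20 distinct profiles) and 27, beside 2.23% and 6.32%. In all 109 genes the arrays of the 2 groups did not overlap, as in 12.9% (up) and 9.94% (down) of all genes. These patterns are not independent of the call, which already sets double KO against Nemo KO, and are given as a description. Where the lines were not apart, in 26 genes the double KO arrays alone lay beyond all 8 others, in 27 the Nemo KO arrays alone did, and in 14 both did, on opposite sides. These were 23.9%, 24.8% and 12.8% of the called genes, beside 17.8%, 35.8% and 0.741% of all genes whose 2 groups did not overlap. The 27 genes carry 13 distinct profiles that rose and 5 that fell.

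Genes that were higher in both Cxcr6-deficient groups included those of the selenium-binding proteins Selenbp1 and Selenbp2, and enzymes of steroid and phosphoinositide metabolism. Selenbp1, a methanethiol oxidase, read 15.01, 14.89 and 15.30 in double KO against 13.45, 13.48 and 13.17 in Nemo KO. In Cxcr6 KO it read 15.11, 15.33 and 15.32 and in wildtype 12.99 and 13.76, so both Cxcr6-deficient groups were high and no array of theirs overlapped the rest. The difference from Nemo KO was 1.70 ± 0.20 (SE, 3.25-fold, adjusted p = 0.0109), beside 1.88 ± 0.22 in the Cre-negative arrays (adjusted p = 0.0114). Its neighbour Selenbp2, a male-biased liver gene, behaved likewise: it read 14.85, 14.84 and 15.34 in double KO and 13.11, 13.16 and 12.89 in Nemo KO, a rise of 1.96 ± 0.21 (adjusted p = 0.00811). The Cre-negative difference of Selenbp2 was 2.10 ± 0.24 (adjusted p = 0.0114).

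The rows of Selenbp1 and Selenbp2 may share signal, since the genes are near-identical paralogues. Their upstream sequences are alike too, but lie outside the transcripts and do not bear on shared signal. The 250 bases before each start, from RefSeq on GRCm38.p6, are printed 5′ to 3′ in the direction of transcription, with capitals marking bases that do not match the other gene in a global alignment (223 identical bases, 15 mismatches, 24 gap positions).
Selenbp1, chr3:94932833-94933082, plus strand: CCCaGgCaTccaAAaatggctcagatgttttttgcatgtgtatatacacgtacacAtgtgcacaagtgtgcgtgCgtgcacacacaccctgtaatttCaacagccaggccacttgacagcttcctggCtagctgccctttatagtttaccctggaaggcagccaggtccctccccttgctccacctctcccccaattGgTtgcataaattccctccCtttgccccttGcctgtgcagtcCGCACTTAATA
Selenbp2, chr3:94693323-94693572, plus strand: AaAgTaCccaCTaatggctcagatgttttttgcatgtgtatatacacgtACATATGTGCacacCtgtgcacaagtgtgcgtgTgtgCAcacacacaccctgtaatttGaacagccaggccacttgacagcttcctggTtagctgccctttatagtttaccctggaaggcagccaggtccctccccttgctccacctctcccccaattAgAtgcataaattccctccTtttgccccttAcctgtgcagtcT

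Hsd3b3, a hydroxysteroid dehydrogenase of steroid hormone metabolism, read 15.87, 15.30 and 15.004 in double KO and 13.23, 13.55 and 13.51 in Nemo KO. The rise was 1.96 ± 0.21 (3.89-fold, adjusted p = 0.00787), and the Cre-negative difference was 2.22 ± 0.23 (adjusted p = 0.00925). Other Hsd3b genes are close paralogues, so their signal can be shared. Pik3c2a, a class II phosphoinositide kinase, rose by 1.90 ± 0.22 (adjusted p = 0.0117) and differed by 1.57 ± 0.25 in the Cre-negative arrays (adjusted p = 0.0514). Ptpmt1, a mitochondrial phosphatase needed for cardiolipin synthesis, rose by 1.38 ± 0.12 (adjusted p = 0.0041; Cre-negative 1.24 ± 0.13, adjusted p = 0.00925).

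Clec2h, a lectin-like surface protein whose family binds receptors of natural killer cells, read 7.82, 8.70 and 7.04 in double KO and 5.43, 5.55 and 5.37 in Nemo KO. It read 8.64, 8.93 and 8.95 in Cxcr6 KO against 4.93 and 5.46 in wildtype, so Cxcr6 KO had the highest mean and overlapped double KO, and both lay above the other groups. The rise was 2.40 ± 0.35 (5.29-fold, adjusted p = 0.0322) beside 3.64 ± 0.39 in the Cre-negative arrays (adjusted p = 0.00925). Acpp, an acid phosphatase, showed the same order of group means: 6.96, 8.02 and 6.84 in double KO, 5.25, 5.32 and 5.197 in Nemo KO, and 8.39, 8.72 and 8.86 in Cxcr6 KO. It rose by 2.02 ± 0.28 (adjusted p = 0.026), beside 3.40 ± 0.31 in the Cre-negative arrays (adjusted p = 0.0046). Sugct, a mitochondrial glutaryl-CoA transferase, read 9.76, 9.60 and 9.41 in double KO against 8.06, 7.54 and 8.13 in Nemo KO, and 11.28, 11.16 and 11.14 in Cxcr6 KO. Its rise was 1.68 ± 0.17 (adjusted p = 0.00626) and its Cre-negative difference 2.40 ± 0.19 (adjusted p = 0.00261).

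Trim12a, a member of the Trim family of antiviral restriction factors, read 7.85, 7.98 and 7.96 in double KO, 6.67, 6.49 and 6.48 in Nemo KO, 7.61, 7.46 and 7.60 in Cxcr6 KO, and 6.54 and 6.74 in wildtype. The rise was 1.38 ± 0.09 (2.61-fold, adjusted p = 0.000813), with 0.92 ± 0.10 in the Cre-negative arrays (adjusted p = 0.0112). Its neighbours Trim5 and Trim12c rose by 0.78 ± 0.13 and 0.49 ± 0.08 (adjusted p = 0.0473 and 0.0414), and neither passed 5% in the Cre-negative comparison (adjusted p = 0.202 and 0.661). These paralogues can also share signal.

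Further genes higher in both Cxcr6-deficient groups were Ulk2, a kinase that starts autophagy (0.93 ± 0.10; Cre-negative 1.45 ± 0.11), and Haus1, a subunit of the spindle complex augmin (0.60 ± 0.09; Cre-negative 0.89 ± 0.10). Camk2b, a calmodulin-dependent kinase, rose by 0.69 ± 0.12 (Cre-negative 1.03 ± 0.13). Hfe, which takes part in iron sensing by hepatocytes, rose by 0.79 ± 0.12 (Cre-negative 1.03 ± 0.14). Mug2, a murinoglobulin protease inhibitor, rose by 0.99 ± 0.10 (Cre-negative 0.75 ± 0.12), and Akr1e1, an aldo-keto reductase, by 1.11 ± 0.12 (Cre-negative 0.89 ± 0.14). All 6 passed 5% in both comparisons, with adjusted p-values of 0.00626 to 0.0487 between double KO and Nemo KO. Mug2 lay at 18.91 to 19.07 in double KO, near the top of the array's range.

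The largest rises of all lay in genes for which no role is given here. Mir1948, a microRNA gene, read 10.91, 12.59 and 10.68 in double KO and 6.17, 6.64 and 6.45 in Nemo KO, a difference of 4.97 ± 0.46 (31.4-fold, adjusted p = 0.00513). It read 11.50, 10.92 and 10.43 in Cxcr6 KO and 5.57 and 5.58 in wildtype. Both Cxcr6-deficient groups were thus high, without overlap with the others. F830016B08Rik rose by 3.79 ± 0.34 (Cre-negative 3.28 ± 0.38). The predicted gene Gm12397 rose by 2.97 ± 0.30, with 1.91 ± 0.33 in the Cre-negative arrays (adjusted p = 0.0782). The neighbouring olfactory receptor genes Olfr1034 and Olfr1033 rose by 4.05 ± 0.34 and 2.80 ± 0.27. In both, double KO lay above all 8 other arrays, although Cxcr6 KO was also above wildtype.

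Several falls followed the same pattern. Prelid2, a gene of a family of mitochondrial lipid transfer proteins, read 7.38, 7.15 and 7.39 in double KO and 9.11, 8.49 and 8.99 in Nemo KO, a fall by 1.56 ± 0.27 (adjusted p = 0.0487). It read 6.23, 6.03 and 6.06 in Cxcr6 KO and 9.09 and 10.23 in wildtype, which is a Cre-negative difference of -3.55 ± 0.30 (adjusted p = 0.00261). The predicted gene Gm3704 differed by -2.35 ± 0.12 (adjusted p = 0.000181) and by -2.36 ± 0.14 in the Cre-negative arrays (adjusted p = 0.000474). Cdcp1, a transmembrane glycoprotein of cell adhesion, read 5.26, 5.29 and 5.33 in double KO against 6.08, 6.24 and 5.99 in Nemo KO. It fell by 0.81 ± 0.11 (adjusted p = 0.0246), beside -1.24 ± 0.12 in the Cre-negative arrays (adjusted p = 0.00615). Lnx1, a ubiquitin ligase, fell by 1.77 ± 0.30 (adjusted p = 0.0473), where the Cre-negative difference of -0.92 ± 0.33 did not pass 5% (adjusted p = 0.332).

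In other genes double KO was the high group. Akr1c18, an aldo-keto reductase that inactivates progesterone, read 8.17, 7.96 and 7.14 in double KO and 5.54, 5.28 and 5.54 in Nemo KO. It read 6.19, 6.12 and 6.12 in Cxcr6 KO and 5.88 and 6.12 in wildtype, so only the double KO arrays were above 7, although Cxcr6 KO also lay just above wildtype. The rise was 2.31 ± 0.23 (4.95-fold, adjusted p = 0.00626), and the Cre-negative difference was 0.15 ± 0.26 (adjusted p = 0.893). Bmp6, a ligand that induces hepcidin and is made mainly by liver endothelial cells, read 7.32, 7.51 and 7.36 in double KO and 6.41, 6.69 and 6.57 in Nemo KO. The other 5 arrays of Bmp6 lay between 6.31 and 6.69. It rose by 0.84 ± 0.12 (1.79-fold, adjusted p = 0.026), beside a Cre-negative difference of 0.02 ± 0.13.

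Tek, the angiopoietin receptor of endothelial cells, read 7.35, 7.87 and 7.67 in double KO and 6.45, 6.51 and 6.63 in Nemo KO, a rise of 1.10 ± 0.18 (adjusted p = 0.0447). Igf2bp3, an oncofetal RNA-binding protein, read 6.31, 6.03 and 6.20 in double KO and 5.39, 5.58 and 5.30 in Nemo KO, a rise of 0.76 ± 0.11 (adjusted p = 0.0291). Tspan8, a tetraspanin of biliary and tumour cells, read 6.20, 6.45 and 6.96 against 5.44, 5.52 and 5.61, a rise of 1.02 ± 0.17 (adjusted p = 0.0487). For these 3 genes the Cre-negative differences were -0.11, 0.14 and -0.28, and none passed 5%.

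Other genes with double KO above all 8 other arrays were Adam23, a cell adhesion protein (1.21 ± 0.20), Fads3, a fatty acid desaturase family member (1.18 ± 0.18), and Fkbp7, a prolyl isomerase of the endoplasmic reticulum (1.09 ± 0.15). Msrb3, a methionine sulfoxide reductase, rose by 0.90 ± 0.14, and Casp12, an inflammatory caspase, by 0.86 ± 0.14. Sema6a, a semaphorin, rose by 0.86 ± 0.13, Chrm3, a muscarinic acetylcholine receptor, by 0.74 ± 0.12, and Serpinb6a, a protease inhibitor, by 0.70 ± 0.12. Pde7a, a cyclic AMP phosphodiesterase, rose by 0.67 ± 0.09, Slc25a4, a mitochondrial ADP/ATP carrier, by 0.60 ± 0.10, and Csrp1, a LIM-domain protein of smooth muscle and stellate cells, by 0.46 ± 0.08. Their adjusted p-values ran from 0.0246 to 0.0491, and none passed 5% in the Cre-negative arrays.

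Double KO lay below all 8 other arrays in a transporter, a haem synthesis gene and a secreted protease inhibitor. Slco1a1, a male-biased uptake transporter of bile acids and other organic anions, read 13.57, 14.01 and 14.38 in double KO and 16.34, 16.35 and 15.70 in Nemo KO. It read 16.42, 16.61 and 16.53 in Cxcr6 KO and 16.48 and 15.32 in wildtype, so double KO was the low group. Slco1a1 fell by 2.14 ± 0.31 (4.41-fold, adjusted p = 0.0329), against a Cre-negative difference of 0.62 ± 0.35 (adjusted p = 0.575), or 0.04 against wildtype replicate 1 alone and 1.1971 against replicate 2. Alas2, the erythroid form of the first enzyme of haem synthesis, read 10.29, 9.80 and 10.45 in double KO and 12.01, 11.10 and 12.05 in Nemo KO, and fell by 1.54 ± 0.27 (adjusted p = 0.0487). Serpina1e, an alpha-1-antitrypsin gene, read 18.27, 18.34 and 18.58 against 19.10, 18.99 and 19.03, and fell by 0.64 ± 0.11 (adjusted p = 0.0487). Serpina1e has near-identical paralogues and lies near the top of the array's range.

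Saa1, an acute phase protein of the serum amyloid A family, had the largest fall. It read 11.55, 10.96 and 11.64 in double KO and 15.90, 13.38 and 15.14 in Nemo KO. It read 11.00, 10.57 and 11.23 in Cxcr6 KO and 11.02 and 12.50 in wildtype, so Nemo KO was the high group and double KO overlapped the Cre-negative arrays. Saa1 fell by 3.43 ± 0.60 (10.8-fold, adjusted p = 0.0487), and the Cre-negative difference was -0.83 ± 0.67 (adjusted p = 0.732), or -0.09 against wildtype replicate 1 alone and -1.57 against replicate 2. Its paralogue Saa2 read 10.28, 9.56 and 10.38 against 14.81, 12.14 and 13.88, a difference of -3.54 ± 0.65 that just missed the threshold (adjusted p = 0.0567).

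The rows of Saa1 and Saa2 can share signal, on which upstream bases do not bear. The 250 bases before their starts are shown because the values of the 2 genes ran alike and the sequences are so similar. They share 238 identical bases, with 11 mismatches and 2 gap positions, marked in capitals as above (RefSeq, GRCm38.p6). Both hold the letters TTGCNNAA, part of the site of C/EBP factors, which drive acute phase genes. The matched bases, TTGCACAA, begin 182 bases before the start of Saa1 and 183 before that of Saa2. Searched on both strands, the motif occurs in 9.56% of 32851 windows of the same length, and a match is not evidence of binding. It is not particular to this pair: of the other windows printed, those of Selenbp1 (TTGCATAA, 51 bases before the start), Slc22a28 and Slc22a30 (TTGCAGAA, 33 and 39 bases before) hold it too, and that of Selenbp2 does not.
Saa1, chr7:46742981-46743230, minus strand: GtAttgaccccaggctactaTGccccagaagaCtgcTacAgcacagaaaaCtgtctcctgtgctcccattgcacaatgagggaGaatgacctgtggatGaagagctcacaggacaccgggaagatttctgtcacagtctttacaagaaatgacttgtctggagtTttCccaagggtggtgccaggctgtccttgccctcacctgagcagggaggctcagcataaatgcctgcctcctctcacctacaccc
Saa2, chr7:46751583-46751832, plus strand: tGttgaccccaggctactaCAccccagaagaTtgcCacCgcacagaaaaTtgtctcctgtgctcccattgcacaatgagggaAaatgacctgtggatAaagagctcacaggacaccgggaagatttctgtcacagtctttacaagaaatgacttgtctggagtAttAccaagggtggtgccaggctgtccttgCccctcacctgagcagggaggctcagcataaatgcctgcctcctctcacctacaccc

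Slc22a28 and Slc22a30, neighbouring organic anion transporter genes with male-biased liver expression, were highest in Nemo KO. Slc22a28 read 14.34, 14.46 and 14.12 in double KO, 15.15, 15.39 and 15.24 in Nemo KO, and between 14.55 and 14.72 in the other 5 arrays. It fell by 0.95 ± 0.10 (1.93-fold, adjusted p = 0.00787), and Slc22a30 by 0.74 ± 0.11 (adjusted p = 0.0336). The Cre-negative differences were -0.09 and -0.20, and neither passed 5%. The upstream windows of this pair, shown for the same reason as those of the Saa genes, share 238 identical bases, with 6 mismatches and 12 gap positions (RefSeq, GRCm38.p6).
Slc22a28, chr19:8131983-8132232, minus strand: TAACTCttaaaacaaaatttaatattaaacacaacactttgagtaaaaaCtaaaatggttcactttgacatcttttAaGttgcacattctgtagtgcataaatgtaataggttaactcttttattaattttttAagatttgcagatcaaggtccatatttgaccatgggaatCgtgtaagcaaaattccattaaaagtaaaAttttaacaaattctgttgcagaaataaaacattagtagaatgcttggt
Slc22a30, chr19:8405106-8405355, minus strand: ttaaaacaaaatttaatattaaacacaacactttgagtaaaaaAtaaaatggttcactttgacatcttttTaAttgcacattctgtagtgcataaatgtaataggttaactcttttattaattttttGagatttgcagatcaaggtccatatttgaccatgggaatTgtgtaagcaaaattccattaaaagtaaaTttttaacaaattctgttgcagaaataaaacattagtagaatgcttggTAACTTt

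Among the genes in which the Nemo KO arrays lay below all 8 others were Acss3, a mitochondrial propionate-activating enzyme (1.55 ± 0.18, adjusted p = 0.0126), and Ddah1, which degrades methylated arginines (1.55 ± 0.25, adjusted p = 0.0429). Tuba4a, an alpha-tubulin, rose by 1.16 ± 0.20, Tead1, the transcription factor partner of Yap, by 0.98 ± 0.13, and Ybx3, a cold-shock domain protein, by 0.95 ± 0.14. Atox1, a copper chaperone, rose by 0.62 ± 0.08, and Mthfd1, a folate enzyme of one-carbon metabolism, by 0.52 ± 0.08. Cbr1, a carbonyl reductase and Nrf2 target, read 9.83, 10.12 and 9.77 in double KO, 8.09, 7.84 and 8.64 in Nemo KO, and between 9.40 and 10.07 in the other 5 arrays. Cbr1 rose by 1.72 ± 0.21 (3.28-fold, adjusted p = 0.0149), beside a Cre-negative difference of 0.30 ± 0.23 (adjusted p = 0.72). Gstt1, a glutathione transferase, and Bcl2l13, a mitochondrial protein related to the apoptosis regulators of its family, rose by 1.21 ± 0.16 and 1.57 ± 0.23. In these last 3 genes the 6 Cxcr6-deficient arrays also lay above the 5 others.

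**Figure D2:**
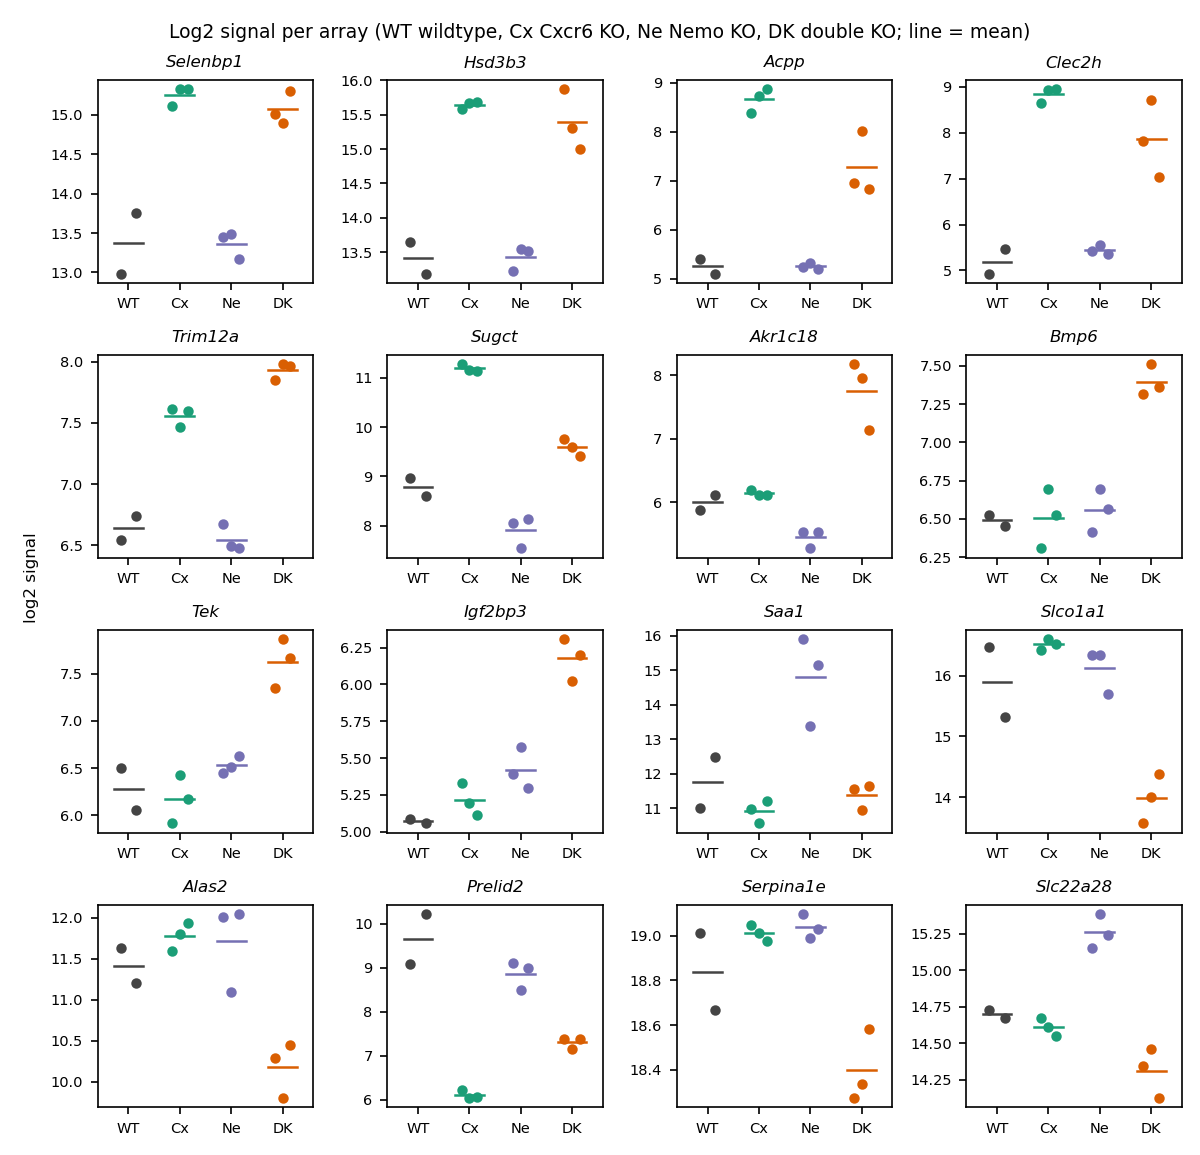
Log2 signal of 16 called genes in each of the 11 arrays (points; short lines are group means), by group, with a separate y axis for each gene. Selenbp1, Hsd3b3, Acpp, Clec2h, Trim12a and Sugct are high in both Cxcr6-deficient groups, Prelid2 is low in both, Akr1c18, Bmp6, Tek and Igf2bp3 are high in double KO alone, Slco1a1, Alas2 and Serpina1e are low in it alone, Saa1 is high in Nemo KO, and Slc22a28 is highest in Nemo KO and lowest in double KO.

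MicroRNA genes made up 12 of the 42 falls, but these represent few measurements. The 9 called Mir669a genes had identical values in all arrays, as did the 2 called Mir669p genes, so each set counts as 1 profile. The Mir669a row read 5.72, 6.12 and 5.64 in double KO and 6.79, 6.94 and 6.44 in Nemo KO, a fall by 0.89 ± 0.16 (adjusted p = 0.0487), and the Mir669p row fell by 0.93 ± 0.16. Both lay near the array medians. The third, Mir2136, is the neighbour of Acpp in the gene order, yet it fell where Acpp rose. It read 5.43, 5.59 and 5.59 against 6.08, 6.25 and 6.55, a fall by 0.76 ± 0.12 (adjusted p = 0.0414), and double KO lay below all 8 other arrays. Of the 13 called microRNA genes, 1 had a mature sequence in the RefSeq table used here, that of mmu-miR-2136, whose seed (bases 2 to 8, which pair with targets) is in capitals. The array row measures the gene's RNA, not the mature strand.
mmu-miR-2136, chr9:104426163-104426183, GRCm38.p6, plus strand: cUGGGUGUugacugagaugug

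The genes were also described by 34 lists of pathways and programs, which held 887 tested genes, 25 of them called (2.82%, beside 0.594% of all genes). The lists were drawn up with earlier results known, so nothing is read from that share. Over all genes 0.365% rose, 0.229% fell and 56.9% were higher, which is the background for the counts of each list. Among 29 male-biased liver genes, 4 fell (Slco1a1, Slc22a28, Slc22a30 and Serpina1e) and 1 rose (Selenbp2). Of the 6 fits that left out a double KO or Nemo KO array, Slc22a28 and Selenbp2 were called in all 6. Slco1a1 and Slc22a30 were called in 1 each and Serpina1e in 0. The median of this list was -0.50, with 23 of 29 members lower, against a median of 0.04 over all genes. The list mean was 13.995 to 14.14 in the double KO arrays and 14.39 to 15.01 in the Nemo KO arrays, without overlap. Of 22 female-biased genes none was called, the median was 0.87 and 19 were higher. The female-biased list mean was 9.49 to 10.05 in double KO and 8.41 to 8.90 in Nemo KO. Cyp4a14, a fatty acid hydroxylase on this list, read 16.60, 15.78 and 16.40 in double KO and 12.42, 12.96 and 12.47 in Nemo KO (3.65 ± 0.65, adjusted p = 0.0528). Cyp4a14 is also on the lists of Ppara targets and of cytochrome P450 genes. In the Cre-negative arrays the medians of the male-biased and female-biased lists were 0.42 and -0.0005. They depend on the wildtype array: against replicate 1 alone they were 0.02 and 0.76, and against replicate 2 alone 0.84 and -1.33. The list means of these 2 arrays were 14.6 and 13.4 for the male-biased and 8.71 and 11.2 for the female-biased genes.

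Of 32 acute phase genes, Saa1 fell and none rose. The list median was -0.29 with 27 members lower, and the Cre-negative median was -0.35, or -0.21 and -0.40 against wildtype replicates 1 and 2 alone. Orm2, an orosomucoid, and Lcn2, an iron-binding lipocalin, differed by -1.05 ± 0.28 and -1.25 ± 0.39 and did not pass 5% (adjusted p = 0.141 and 0.178). In the list of 16 Serpina and Mup genes Serpina1e fell, and the median was -0.42 with 12 lower. Complement and coagulation genes had 1 call among 41, Cfi, the protease that inactivates C3b and C4b, which rose by 0.66 ± 0.10 (adjusted p = 0.0339). Their median was -0.01, and 20 members were higher and 21 lower.

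Lists of detoxification and lipid oxidation held few calls. Of 28 steroid dehydrogenases and reductases 3 rose (Akr1c18, Hsd3b3 and Cbr1) and none fell, with a median of 0.16. Of 27 Nrf2 targets, genes of the response to oxidative stress, Cbr1 rose, 25 were higher and the median was 0.51. Nqo1, a quinone reductase, and Gsta2, a glutathione transferase, differed by 1.65 ± 0.34 and 2.02 ± 0.47 and missed the threshold (adjusted p = 0.0707 and 0.0997). None of the 37 Ppara targets and fatty acid oxidation genes was called, and 32 were higher with a median of 0.36. Without double KO replicate 3 the median was 0.20. It was 0.64 in the Cre-negative arrays, but 0.22 against wildtype replicate 1 alone and 0.78 against replicate 2. After centring, 3 of these genes were called higher. Ehhadh and Acot2, enzymes of peroxisomal oxidation and of acyl-CoA hydrolysis, differed by 1.70 ± 0.31 and 2.19 ± 0.41 (adjusted p = 0.0547 and 0.0586). Of 41 phase II conjugation genes Gstt1 rose (median 0.31), and of 49 cytochrome P450 genes none was called (median 0.20), or 3 after centring.

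The selenium and one-carbon list had 3 rises among 29 genes (Selenbp1, Selenbp2 and Mthfd1), with a median of 0.29. The haem and iron list had 2 rises (Bmp6 and Hfe) and 1 fall (Alas2) among 29, with a median of 0.13. The phosphoinositide and phosphatase list had 2 rises (Pik3c2a and Acpp) and 1 fall (Lnx1, a ubiquitin ligase) among 23, with a median of 0.18. Organic ion transporters had 3 falls among 37 (Slco1a1, Slc22a28 and Slc22a30), although 21 members were higher and the median was 0.12. Of 30 cell death genes Casp12 rose (median 0.13), and of 29 growth factor, Notch, Wnt and Yap genes Tead1 rose (median 0.19). Of 26 desmosome and adhesion genes Cdcp1 fell (median 0.19).

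Liver tumour and oncofetal markers had 3 rises among 19 genes (Akr1c18, Igf2bp3 and Tspan8), with 17 higher and a median of 0.76. The list mean was 7.92, 7.93 and 8.35 in double KO and 7.37, 7.51 and 7.21 in Nemo KO. Afp, alpha-fetoprotein, read 6.43, 5.90 and 5.80 against 5.71, 5.85 and 5.70 and was not called (0.29 ± 0.16, adjusted p = 0.377). Gpc3, another liver tumour marker, lay below the signal filter. None of 53 cell cycle genes was called, although 48 were higher and the median was 0.58. That median was 0.20 without double KO replicate 3 and 0.90 without double KO replicate 1. Mki67 read 8.53, 10.10 and 12.38 in double KO and 8.86, 8.64 and 9.44 in Nemo KO, so its double KO arrays spread widely and overlapped (1.36 ± 1.35, adjusted p = 0.624). Cdkn1a, the p53-induced cell cycle inhibitor, read 11.58, 9.48 and 11.43 against 9.48, 9.45 and 10.37 (1.06 ± 0.72, adjusted p = 0.474). None of 25 p53 targets was called, with 21 higher and a median of 0.29.

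Medians of the inflammatory lists other than the acute phase lay near that of all genes. None of 29 NF-kB pathway genes, 34 interferon-stimulated genes, 21 antigen presentation genes or 29 stress response genes was called, and their medians were 0.06, 0.10, 0.04 and 0.07. Of 32 chemokines, receptors and lectin-like ligands Clec2h rose, and the list median was -0.01 with 16 higher and 16 lower. Cxcl16, the ligand of Cxcr6, read 6.34, 6.63 and 6.64 in double KO and 6.10, 6.10 and 6.61 in Nemo KO, which overlapped (0.27 ± 0.17, adjusted p = 0.432). No call fell on the lists for bile acid synthesis (17 genes, median -0.03), lipogenesis (30, 0.10), cholesterol synthesis (19, -0.14), glucose metabolism (27, -0.02), the urea cycle and amino acids (30, 0.21), the circadian clock (24, -0.04), growth hormone signalling (16, -0.02), hepatocyte transcription factors (28, 0.08) or fibrosis and matrix (30, 0.31). Some of these medians had no settled direction. When single arrays of the 2 groups were left out, that of cholesterol synthesis ran from -0.38 to 0.08. Those of the circadian clock and growth hormone signalling ran from -0.18 to 0.19 and from -0.08 to 0.15. The fibrosis and matrix median stayed above 0, from 0.16 to 0.46, and 26 of the 30 genes on that list were higher. That of the urea cycle list was 0.04 without double KO replicate 1 and 0.35 without replicate 3. Centring, which moved the median of all genes, moved the list medians alike, by 0.05 to 0.13.

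**Figure D3:**
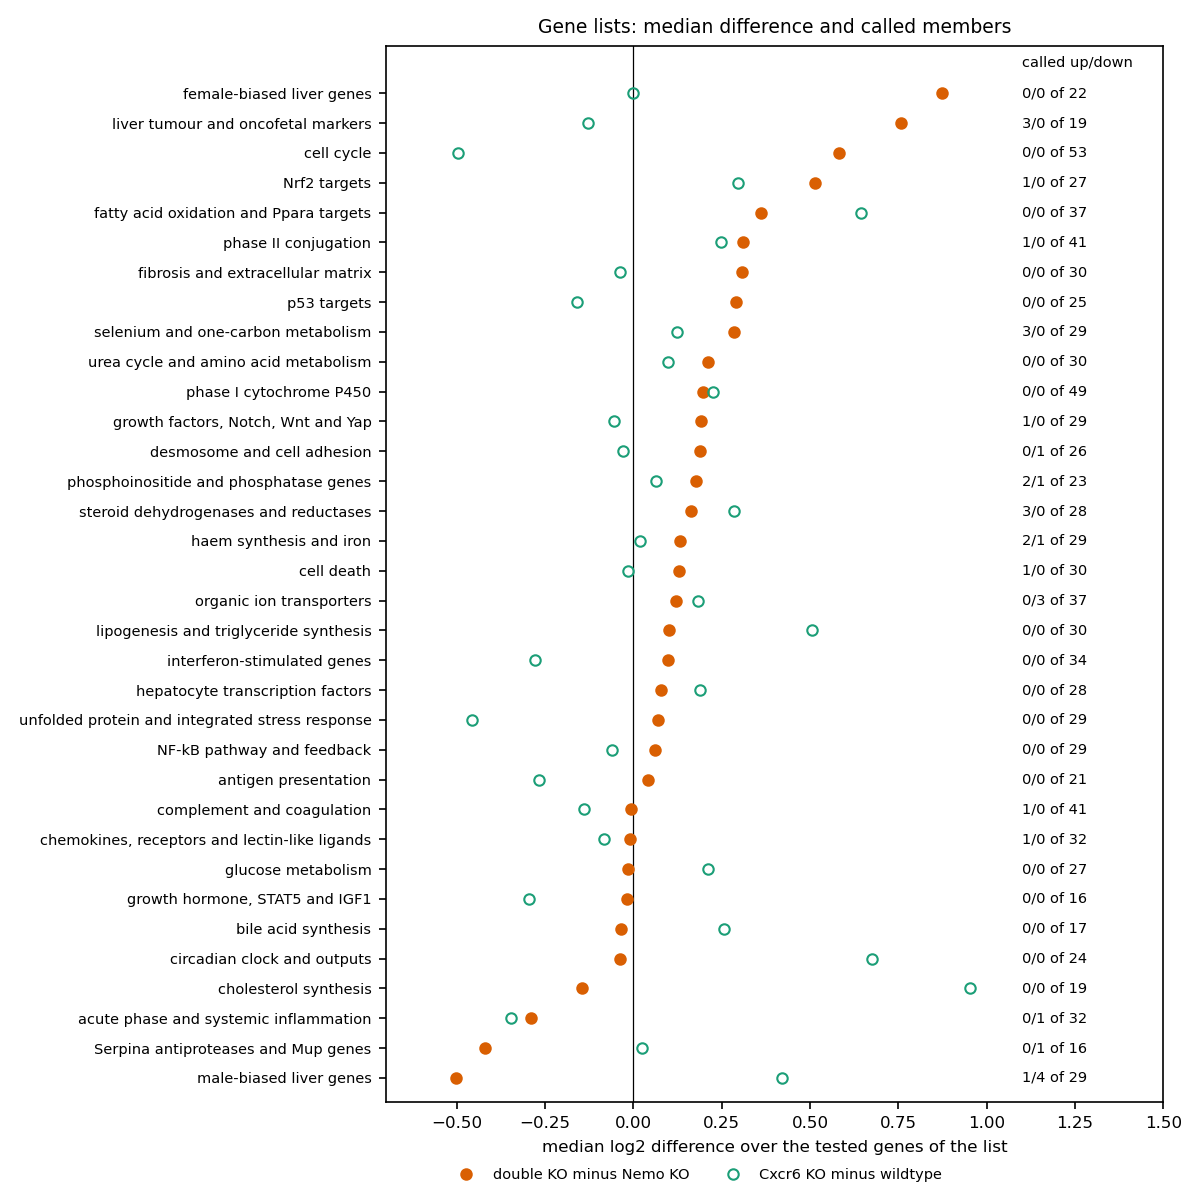
Median log2 difference over the tested genes of 34 lists between double KO and Nemo KO (filled points) and between Cxcr6 KO and wildtype (open points), with the number of members called up and down between double KO and Nemo KO at the right. Female-biased genes (0.87), tumour markers (0.76) and cell cycle genes (0.58) had the highest medians and male-biased genes the lowest (-0.50); open points use the mean of both wildtype arrays, and that of cell cycle genes was 0.15 and -1.15 against each alone.

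Most markers of endothelial, stellate and biliary cells had higher values in double KO, although only Tek and Tspan8 passed 5% (after centring, 6 endothelial, 1 stellate and 2 biliary markers). Of 24 endothelial markers all 24 were higher, with a median of 0.78. At an unadjusted p under 0.05, 20 were higher, as were 9.7% of all genes, and 0 lower, as were 7.09%. The endothelial list mean was 7.36, 8.11 and 7.799 in double KO and 6.79, 6.84 and 7.14 in Nemo KO, without overlap. Pecam1, an adhesion molecule of endothelium, differed by 0.85 ± 0.16 (adjusted p = 0.057). The stellate and fibroblast list (15 genes, 14 higher, median 0.61, no call) had means of 7.13 to 8.10 in double KO and 6.97 to 7.05 in Nemo KO. Bgn, a matrix proteoglycan, read 9.36, 10.79 and 11.23 against 8.55, 8.86 and 8.84 (1.71 ± 0.43, adjusted p = 0.121). The cholangiocyte and progenitor list (11 genes, 9 higher, median 0.69) had means of 6.74 to 7.06 against 6.23 to 6.36, and Tspan8 was called. The Kupffer cell and macrophage list (26 genes, 19 higher, median 0.53, no call) overlapped, at 7.72 to 8.43 against 7.18 to 8.31. T cell, NK and NKT, and neutrophil lists kept 4 tested genes each and the B cell list 1, and none was called. Without double KO replicate 3 the stellate and cholangiocyte medians were 0.36 and 0.44, and the Kupffer cell median was 0.26 without Nemo KO replicate 2 and 0.98 without Nemo KO replicate 3. Of 5 erythroid genes Alas2 fell. The 19 hepatocyte markers had no call and a median of -0.03.

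More cells of a type and more RNA per cell cannot be told apart in these bulk samples. The endothelial and stellate marker medians had the same sign as the differences of Bmp6, Tek, Sema6a, Tspan8, the matrix list and the tumour marker list, and their part in those results was not tested. Part of this is built in, since Tek is itself an endothelial marker and the matrix and stellate lists share members such as Bgn and Dcn. The tumour marker and cholangiocyte lists share Tspan8 and other genes. In the Cre-negative arrays the endothelial, stellate and cholangiocyte medians were -0.14, -0.22 and -0.11. Against wildtype replicate 1 alone they were -0.17, -0.06 and -0.01, and against replicate 2 -0.08, -0.29 and -0.16. Selenbp1, Hsd3b3 and Trim12a were grouped by being higher in both Cxcr6-deficient groups, so their Cre-negative rise is not a separate result.

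**Figure D4:**
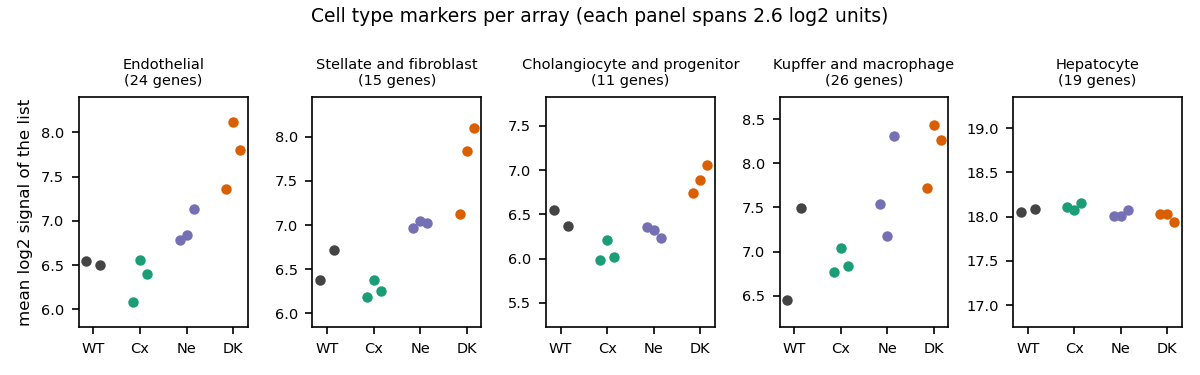
Mean log2 signal of 5 cell type marker lists in each array (points), by group (WT wildtype, Cx Cxcr6 KO, Ne Nemo KO, DK double KO), with panels of equal span. The double KO arrays lie above the Nemo KO arrays for endothelial, stellate and cholangiocyte markers and overlap them for Kupffer cell markers, while the hepatocyte markers stay between 17.9 and 18.2 in all arrays.

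The place of the called genes in the RefSeq gene order was examined, since the knocked-out gene and its surroundings pass together through a line. Of the 54 tested genes nearest to Cxcr6 (50 before it and the 4 found after it) 1 was called, Cdcp1, or 1.85% beside 0.594% of all genes. In the Cre-negative arrays 3 of these 54 were called (5.56%, beside 0.256% of all genes): Cdcp1, Acaa1a and Acaa1b. The last 2, thiolases of peroxisomal fatty acid oxidation, did not pass 5% between double KO and Nemo KO (0.13 ± 0.17 and 0.32 ± 0.26, adjusted p = 0.704 and 0.546). Among the 94 called genes with a place in the order, 31 (33%, with 25 distinct profiles) had another called gene with different values within 5 tested genes on either side, beside 5.58% of all 13494 genes with a place. Of the 31, 8 were Mir669a and Mir669p genes, which carry 2 profiles. The others included paralogues that can share signal: Selenbp1 with Selenbp2, Trim12a with Trim5 and Trim12c, Olfr1033 with Olfr1034, and Slc22a28 with Slc22a30. Neighbours that are not paralogues included Tm7sf3 with Med21, Ybx3 with Smim10l1, Hdhd2 with Haus1, Snx29 with Cpped1 and Bmp6 with Cage1. Members of these pairs did not always agree in direction: Snx29 fell by 0.72 ± 0.13 and Cage1 by 0.53 ± 0.07, where their neighbours Cpped1 and Bmp6 rose by 0.61 ± 0.10 and 0.84 ± 0.12.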

How the data were processed

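RNA of 11 hepatocyte samples was measured on expression arrays. The submitters' processing notes name RMA, Affymetrix Expression Console and Transcriptome Analysis Console. The values the authors deposited are log2 signals in 65956 rows. The genome build behind them is not stated in the sources used here. Arrays carry no read depth, and their number limits precision.

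Rows with 1 gene symbol (30604) were kept, and symbols were updated through RefSeq (GRCm38.p6; 22818 rows matched, 827 symbols changed). The row with the highest mean stood for each of 30142 genes. Genes whose highest group mean reached 5.27, the median row mean, were tested (18337). All 4 groups were fitted with limma 3.58.1 in R 4.3.3 (lmFit, eBayes; 7 residual degrees of freedom). Errors of differences are standard errors, tests were two-sided, and Benjamini-Hochberg adjustment ran over every gene tested. The labels call replicates biological without saying that each is a mouse of its own. The fit was tested on simulated data.

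Members and lists were chosen with earlier results of these data known. Named genes were the 15 highest and 15 lowest among called annotated genes, called list members, up to 4 members of each list with the smallest p, and Ikbkg, Cxcr6, Cxcl16, Cdkn1a, Mki67 and Afp. Other genes, among them the second-tier called genes, Eif2s3y, Acaa1a, Acaa1b and the predicted models, were named after their values were seen. Alternatives covered scaling, filter, moderation, rows, a replicate block and leaving out arrays.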

Additional observations from a re-analysis of the deposited data

Results flagged for a closer look

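The comparison left out rows with several gene symbols or none. A fit over 35554 rows that included them called 20 of 16936 such rows between double KO and Nemo KO (0.118%), 12 higher and 8 lower, beside 37 of 18618 rows with 1 symbol (0.199%). These 20 rows are given because they are signal in data the comparison did not use, not because such rows were called more often. They are unnamed here.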

How the results depend on the processing

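All 109 genes kept their direction in each of the 20 alternatives that tested them, and 9 passed 5% in all 20, while 58 did so in fewer than 10 of them. Of 3691 values of named genes under alternatives, 470 no longer passed 5%, 70 newly passed and 0 reversed; the causes were not tested. The count of calls between double KO and Nemo KO was 201 after centring, 61 with a highest group mean of at least 7, 11 with only the 2 groups, and 19 to 161 when single arrays were left out. Deviations of the same-numbered arrays of the 2 groups correlated at 0.14, 0.11 and -0.23, within the range of differently numbered arrays (-0.42 to 0.23). So few arrays cannot show whether the numbers pair anything. A replicate block gave 61 calls, 51 of them shared with the 109. Between Cxcr6 KO and wildtype the count was 28 after centring, 24 without a filter, 24 with the replicate block and 8 to 493 without single arrays, and the interaction had 0 to 232. The same-sign share in the Cre-negative arrays was 79.07% without a filter, 85.25% with the mean of at least 7, 79.52% with identical rows counted once and 54.9% to 91.67% without single arrays; each uses its own calls. Genes whose arrays did not overlap numbered 6677 after centring, 2399 with the mean of at least 7 and 4185 to 6618 without single arrays. Calls near Cxcr6 were 0 with the mean of at least 7, the replicate block or only the 2 groups, and 0 to 1 without single arrays.

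Centring shifted the all-gene median (0.04 before, 0.16 after), and list medians shifted with it. They became 0.4269 (phase II), 0.0818 (bile acid), 0.1084 (glucose), 0.2476 (haem and iron), 0.4066 (p53), 0.2432 (cell death), 0.1768 (NF-kB), 0.1191 (chemokines), 0.1565 (antigen presentation), 0.111 (complement), 0.1954 (hepatocyte transcription factors, -0.007 after quantile normalization) and 0.2949 (phosphoinositide). Without single arrays of the 2 groups they ran from 0.2153 to 0.4046 (phase II), 0.1742 to 0.3676 (p53), 0.1262 to 0.1828 (cell death) and -0.5225 to -0.2518 (Serpina and Mup). In all, 24 of the 34 list medians moved by over 1.5 times or changed sign without 1 of these arrays, and 8 changed sign: cholesterol (-0.3781 to 0.082), circadian (-0.1786 to 0.1941), growth hormone (-0.0763 to 0.1465), glucose (-0.0054 to 0.0745), complement (-0.0691 to 0.0401), NF-kB (-0.0066 to 0.1064), antigen presentation (-0.0186 to 0.0808) and stress response (-0.0472 to 0.1717). Other wide ranges were those of the urea cycle (0.0404 to 0.3502), desmosome (0.0364 to 0.305), steroid (0.0621 to 0.2429), Ppara (0.2039 to 0.4612), growth factor (0.0797 to 0.3229), fibrosis (0.1607 to 0.4624), cytochrome P450 (0.0931 to 0.248), organic ion transporter (0.0198 to 0.1791) and interferon lists (0.0071 to 0.1663). Signal near the array medians limits what can be seen for Cxcr6, Cxcl16 and lymphocyte markers.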
